A study of Rattus norvegicus with 158 samples.

Results

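The genes of the slow and the fast contractile apparatus were followed in rat thigh muscle, 30 of the 14217 genes measured. The 14 slow genes were Myh7, Myl2, Myl3, Tnnt1, Tnni1, Tnnc1, Tpm3, Atp2a2, Casq2, Myoz2, Csrp3, Ankrd2, Mb and Hspb6. The 16 fast genes were Myh1, Myh2, Myh4, Mylpf (named Myl11 in the probe annotation), Myl1, Tnnt3, Tnni2, Tnnc2, Atp2a1, Casq1, Pvalb, Actn3, Mybpc2, Tpm1, Myoz1 and Mylk2. They were chosen by name from what is known of fibre types. Each was read from the probe set annotated to it alone that had the highest mean over all arrays, and all 30 were measured.

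Slow fibres contract slowly, resist fatigue and burn fuel with oxygen, and fast fibres contract quickly and lean on glycolysis. Each fibre kind builds its filaments from its own copies of the myosin heavy and light chains and of the troponins, and moves calcium with its own pumps and binding proteins. In rat hind limb, slow fibres are gathered in a few deep muscles and regions, while most of the surface is fast. Several slow genes, Myh7, Myl2, Myl3, Tnnc1, Atp2a2, Casq2, Myoz2, Csrp3 and Mb among them, are also heart genes.

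Thigh muscle came from male Sprague-Dawley (CD-IGS) rats, bought at 6 to 8 weeks of age, kept for 1 week and dosed daily by oral gavage for 3 d or 5 d. Of the arrays, 122 were from rats given 1 of 21 compounds and 36 from rats given only a vehicle, 12 with CMC, 18 with Water and 6, at 5 d, with CMC/SDS/Povidone. The doses were 1000 mg/kg Atenolol, 750 mg/kg Azaribine, 196 mg/kg Buspirone, 269 mg/kg Chlorpropamide, 47 mg/kg Dexchlorpheniramine, 645 mg/kg Dicyclomine, 1005 mg/kg Etidronate, 1200 mg/kg Famotidine, 126 mg/kg Flunarizine, 2500 mg/kg Gabapentin and 1500 mg/kg Glyburide. The others were 132 mg/kg Guanethidine, 1200 mg/kg Levosulpiride, 1000 mg/kg Losartan, 230 mg/kg Oxybutynin, 104 mg/kg Paroxetine, 1170 mg/kg Pentoxifylline, 572 mg/kg Phenytoin, 300 mg/kg Spironolactone, 1000 mg/kg Sulpiride and 535 mg/kg Trimethadione. A compound had 6 arrays, 3 per time, except Dicyclomine (4), Glyburide (5) and Paroxetine (5). Which muscle or region of the thigh was taken is not given in the sources used here.

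The labelled tissue carried its defining genes: median levels on the log2 scale were 14.57 for Acta1, skeletal muscle actin, 14.01 for Ttn, titin, and 5.31 for the heart myosin Myh6. Among the arrays 1 stood apart. In Famotidine 3 d replicate 2, Tnni3, the heart troponin I, lay at 13.35 against at most 8.93 on any other array, and Myh6 lay at 11.70 against at most 6.78. This array was also the highest of all for Myl2 (13.98), Tnnc1 (13.06), Atp2a2 (13.83), Casq2 (11.32), Myoz2 (12.84) and Csrp3 (12.86), 6 slow genes. Its Myh4 (13.76) and Acta1 (14.56) lay within the range of the others. The spread, the tested correlations and the count of genes with any compound effect were also computed without it. The Famotidine changes below include it. Tnni3 was next highest, at 8.93 against a median of 5.29 over all arrays, in Buspirone 3 d replicate 1. That array was kept in the main fits.

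Among the 30 genes, as read from the probe sets used, the slow set varied widely between rats treated alike. The fast set, apart from Myh2, did not. Over all arrays Myh7, the slow myosin heavy chain, ran from 4.11 to 14.02 on the log2 scale. The low end lay below the median of its array (5.69 to 5.89 over all arrays) and was not shown to be above background, so no fold is given. The vehicle controls alone held nearly all of it, from 4.11 to 13.81 with a median of 12.19. Myh4, the fastest myosin heavy chain of rat limb muscle, ran from 12.89 to 14.11, with controls from 13.68 to 14.02. The slow genes were largely high or low in the same animals. In 1 of 21 compounds 1 of them was called as changed. That was 0.34% of slow pairs of gene and compound, beside 1.64% of such pairs over all genes. The call was not made with extraction batch as a block.

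**Figure D1:**
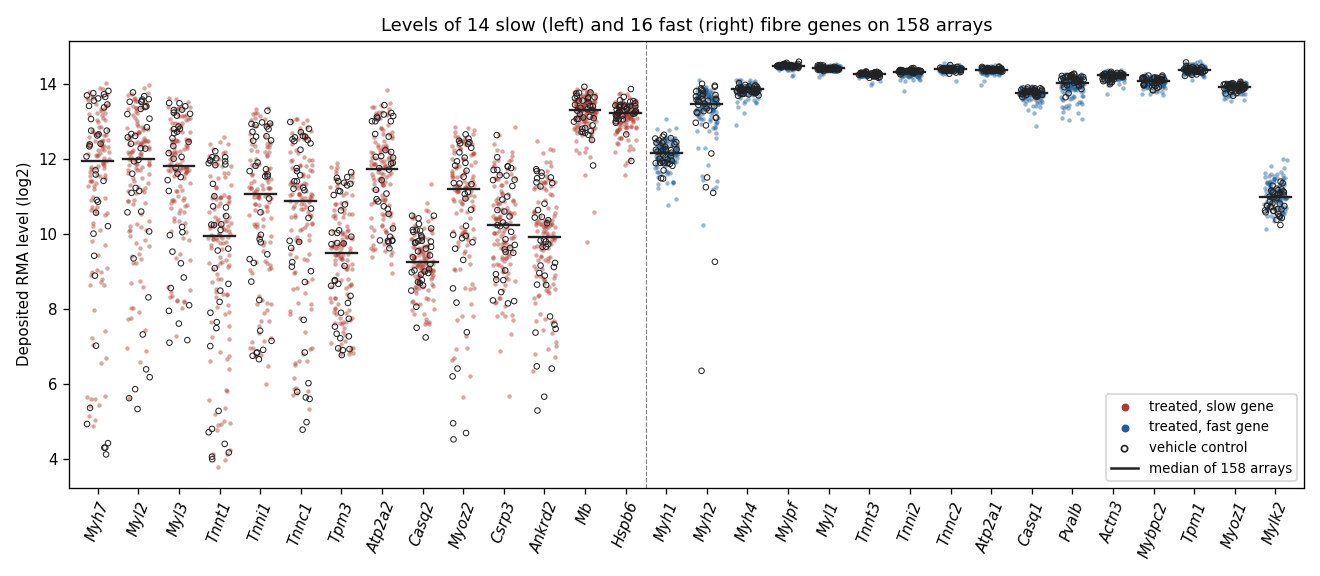
Levels of the 30 genes on all arrays: each point is 1 array, the vertical axis is the deposited log2 level, open circles are vehicle controls, filled points are treated rats, and bars are medians. Myh7 spans 4.11 to 14.02 while Mylpf stays between 14.20 and 14.59. Open circles span nearly the whole height of the Myh7 column but less of some others. For Mb they run from 11.82 to 13.92 of 9.78 to 13.92, and for Csrp3 from 8.14 to 12.63 of 5.66 to 12.86.

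The stretches ahead of 5 of these genes are shown: slow Tnnt1 and Myl3, whose levels varied widely, and the 3 fast myosin heavy chains, neighbours whose spreads differed from each other. The myosin genes lie in a row on rat chromosome 10. Each is the 250 bases before the annotated start in RefSeq, build GRCr8, plus strand, where 25 of the 30 genes had such a window (not Myl2, Tnnc1, Csrp3, Tnnt3 and Mylk2). Tnnt1 is at chr1:78348785-78349034, Myl3 at chr8:119616844-119617093, Myh2 at chr10:52355489-52355738, Myh1 at chr10:52384662-52384911 and Myh4 at chr10:52421898-52422147. Capitals mark matches to the letters TATAAA on the strand of the gene, to the letters CATTCC on both strands and to the letters CANNTG, with N any base, on both strands. They also mark the MEF2 and CArG motifs on both strands and the 20 bases that the 3 myosin windows share, and no 2 matches overlap in these windows.
Tnnt1: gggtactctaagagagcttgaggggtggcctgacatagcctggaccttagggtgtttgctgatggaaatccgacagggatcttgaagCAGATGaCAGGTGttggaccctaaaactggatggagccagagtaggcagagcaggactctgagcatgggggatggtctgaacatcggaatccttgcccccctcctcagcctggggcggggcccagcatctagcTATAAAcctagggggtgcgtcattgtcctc
Myl3: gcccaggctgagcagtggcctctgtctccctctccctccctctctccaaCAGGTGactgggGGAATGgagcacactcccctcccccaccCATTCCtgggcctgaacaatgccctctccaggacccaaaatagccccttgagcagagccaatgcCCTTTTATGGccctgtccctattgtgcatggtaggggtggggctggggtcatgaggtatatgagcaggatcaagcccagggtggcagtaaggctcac
Myh1: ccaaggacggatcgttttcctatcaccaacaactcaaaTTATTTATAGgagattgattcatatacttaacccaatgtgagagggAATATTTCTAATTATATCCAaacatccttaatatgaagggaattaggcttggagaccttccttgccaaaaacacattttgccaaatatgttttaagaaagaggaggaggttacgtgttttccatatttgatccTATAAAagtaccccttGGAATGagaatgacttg
Myh2: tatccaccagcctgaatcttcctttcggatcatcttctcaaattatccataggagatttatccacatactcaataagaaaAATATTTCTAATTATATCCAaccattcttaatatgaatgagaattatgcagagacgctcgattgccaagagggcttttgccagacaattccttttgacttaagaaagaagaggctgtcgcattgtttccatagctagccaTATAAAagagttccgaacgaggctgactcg
Myh4: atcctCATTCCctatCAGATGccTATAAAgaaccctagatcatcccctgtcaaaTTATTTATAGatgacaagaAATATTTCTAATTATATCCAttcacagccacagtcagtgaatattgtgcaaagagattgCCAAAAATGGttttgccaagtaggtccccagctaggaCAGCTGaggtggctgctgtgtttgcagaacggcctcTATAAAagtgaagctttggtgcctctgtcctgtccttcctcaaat

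Among 33469 windows of all annotated genes, the run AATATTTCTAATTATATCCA stood in 3, those of Myh1, Myh2 and Myh4. It was found by a search for the longest run that the 3 share, made after the windows had been seen. It began at base -166 in Myh1, -170 in Myh2 and -177 in Myh4, counted back from -1 at the base before the start. TATAAA stood at -33 in Myh1, at -30 in Myh2 and Tnnt1, and at -45 in Myh4, which held another copy at -227. It was present in 4 of 11 slow and 3 of 14 fast windows, and in 8.06% of all windows. CANNTG, the letters bound by myogenic factors, stood in 10 slow and 11 fast windows and in 65.5% of all. CATTCC, the letters of TEAD factors, stood in 1 slow and 4 fast windows (12.1% of all), MEF2 in 2 and 4 (2.96% of all) and CArG, the site of serum response factor, in 1 and 1 (1.5% of all). A match describes the letters and not a site in use. The spreads of these 3 myosins differed widely and follow.

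Spread was measured as the SD between arrays of the same treatment and time, pooled over 47 groups with 111 residual degrees of freedom. Its median was 1.52 for the slow genes and 0.0925 for the fast genes, against 0.237 for all genes. It exceeded 1 in 11 of 14 slow genes, in 0 of 16 fast genes and in 67 genes of all, or 0.471%. It was below 0.1 in 8 fast genes and in 1.2% of all genes. Of the 20 genes with the highest SD, 9 were slow genes of the set. The fast genes had little room above them: 14 of them had a mean of 13 or more, a level reached by 80 genes in all. How far the top of the scale held down their spread was not tested. Over all arrays, the other Mybpc2 probe set (mean 13.3) had an SD of 0.472 against 0.109 for the one used. For Tnnt3 (mean 10.3) it was 0.314 against 0.0512. The other probe sets of Tpm1 ran from 0.0775 to 0.582 against 0.0803, and those of Myh1 from 0.389 to 0.511 against 0.352. For Mylk2 it was 0.365 against 0.351. Among slow genes, the other probe sets of Tpm3 ran from 0.178 to 0.774 against 1.43 for the one used. Those of Atp2a2 ran from 0.188 to 0.588 against 1.16, and that of Myl2 (mean 6.64) had 0.688 against 2.01. The other probe set had 2.29 against 2.55 for Myh7, 2.04 against 1.94 for Tnni1 and 0.866 against 0.743 for Casq2. The slow spread thus also depended on the probe set in part. In whole muscle, fewer fibres of a kind and less RNA per fibre cannot be told apart.

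**Figure D2:**
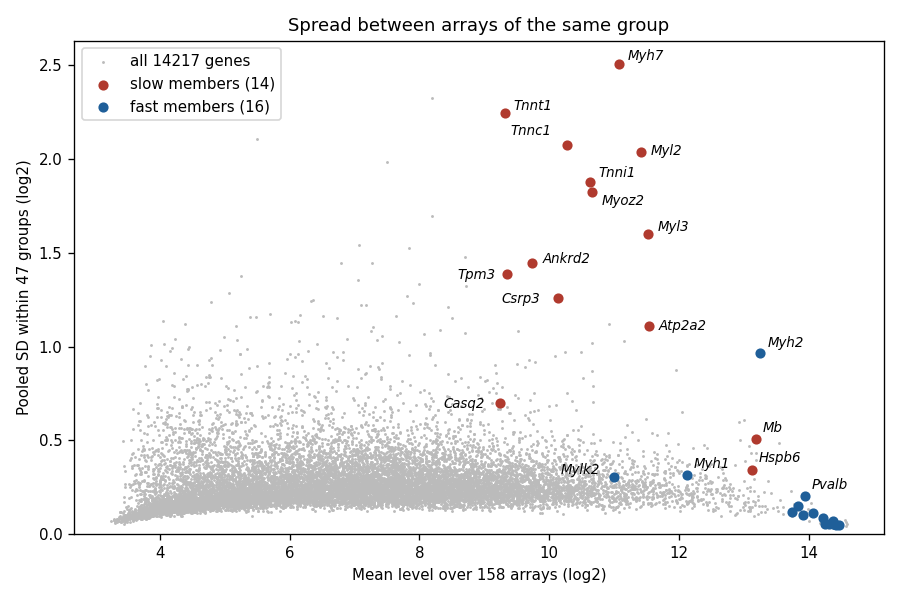
Pooled within-group SD (vertical, log2) against mean level over all arrays (horizontal, log2) for 14217 genes, with the slow genes in red and the fast genes in blue. Myh7 is the highest point of all at 2.51, and the fast genes apart from Myh2 lie at or below 0.32.

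The myosin heavy chains, the motors that set contraction speed, covered the extremes. Myh7 had a pooled SD of 2.51, rank 1 of 14217 genes, and 2.52 without the array rich in heart genes, again rank 1. Myh2, the fast oxidative chain, had an SD of 0.96 (rank 80), Myh1, the intermediate fast chain, 0.32, and Myh4 0.15. In CMC controls at 5 d, Myh7 read 13.55, 12.62, 13.72, 12.75 and 4.11 in replicates 1 to 5. Myh2 read 13.95, 13.10, 13.80, 13.60 and 9.25 on the same arrays, and Myh4 13.77, 13.97, 13.69, 13.85 and 14.02. Replicate 5 was thus far below the others for Myh7 and Myh2 and slightly above them for Myh4.

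The same split appeared across treatments. Myh7 lay below 6 on 15 arrays, 6 of them controls and 9 treated, spread over 11 treatments and 4 extraction batches. It lay at 13 or more on 34 arrays in 15 treatments. Its range within a group was 4 or more in 17 of 47 groups, with a median of 2.65, while Myh4 ranged over 1 or more in 1 group. That group was Flunarizine at 5 d, where Myh4 read 13.71, 13.92 and 12.89. The most even group for Myh7 was Guanethidine at 5 d, at 13.08, 12.59 and 12.62. Myh2 fell below 12 on 12 arrays, and Myh7 was below 8 on 11 of these. The lowest Myh2 of all, 6.34, was in a CMC control at 3 d whose Myh7 was 4.29, but another CMC control at 3 d with Myh7 at 4.41 had Myh2 at 12.14.

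**Figure D3:**
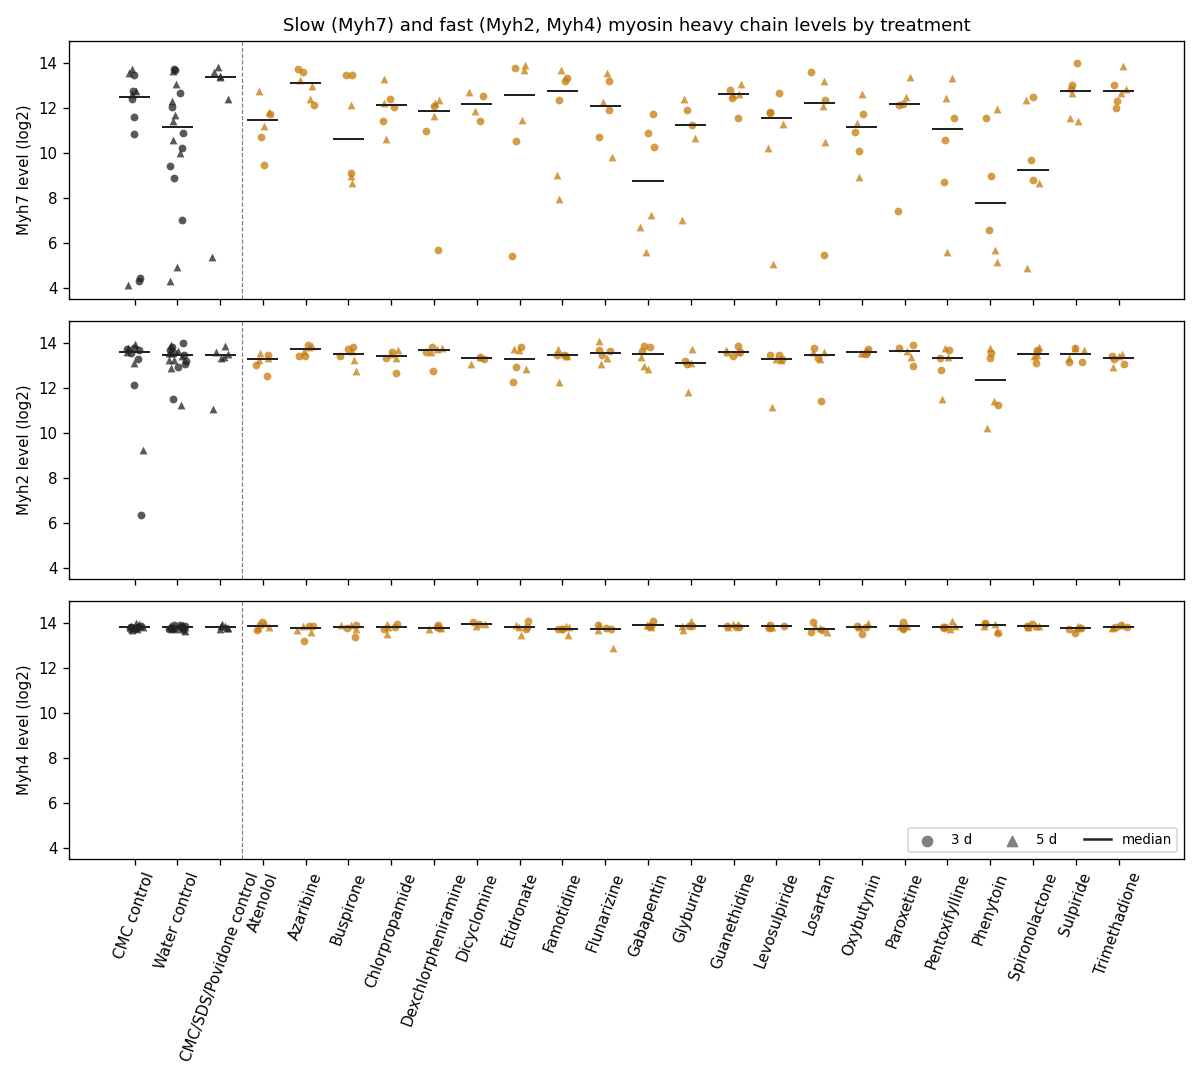
Levels of Myh7, Myh2 and Myh4 (log2, vertical) by treatment (horizontal), each point 1 array, circles 3 d, triangles 5 d and bars the median of a treatment. Myh7 falls below 6 in controls and treated rats alike, Myh2 below 12 on 12 arrays, and Myh4 stays at 12.89 or above.

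The light chains sit on the neck of the myosin head. Slow Myl2 and Myl3 had SDs of 2.04 and 1.60, and fast Mylpf and Myl1 had 0.047 and 0.051. In CMC controls at 5 d Myl2 read 13.67, 12.40, 13.52, 12.61 and 5.32. Mylpf ranked 14215 of 14217 genes by spread and Myl1 14214, so the slow and fast partners of 1 structure lay at opposite ends of the ranking.

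The troponins switch the thin filament on with calcium, and their 3 subunits each have a slow and a fast gene. The SDs were 2.24 for slow Tnnt1, 1.88 for Tnni1 and 2.07 for Tnnc1, against 0.052 for fast Tnnt3, 0.055 for Tnni2 and 0.055 for Tnnc2. In Etidronate at 3 d, Tnnt1 read 12.06, 3.96 and 8.37, the widest Tnnt1 group at a range of 8.10. Tnnt3 on the same arrays read 14.26, 14.28 and 14.21. Tnni1 read 12.97, 11.53, 12.90, 11.90 and 6.82 in the CMC controls at 5 d, and Tnni2 14.31, 14.25, 14.29, 14.34 and 14.34. Tnni1 was low on the array where Myh7 was low, and Tnni2 was as high there as on any other array of the group. Tpm3 and Tpm1, tropomyosins of slow and fast fibres that cover the thin filament, had SDs of 1.39 and 0.069.

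Calcium handling genes gave smaller slow spreads. Atp2a2, the slow and cardiac calcium pump of the sarcoplasmic reticulum, had an SD of 1.11 (rank 48) and fast Atp2a1 0.054. Casq2, the slow and cardiac calcium store protein, had 0.70 and fast Casq1 0.12. Pvalb, a calcium buffer of the fastest fibres, had 0.20 and ran from 13.03 to 14.27. In CMC controls at 5 d Atp2a2 read 13.12, 11.87, 13.18, 12.23 and 9.81, and Pvalb 13.93, 14.18, 13.86, 14.07 and 14.23. The arrays stood in opposite order for the 2 genes, over a far narrower span for Pvalb.

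At the Z disc, where thin filaments are anchored, Myoz2, a slow and cardiac calcineurin-binding protein, had an SD of 1.82 (rank 9) and its fast relative Myoz1 0.10. Csrp3 and Ankrd2, stretch-responsive proteins enriched in slow fibres, had 1.26 and 1.44, and Actn3, the fast fibre actinin, 0.084. Mybpc2, the fast myosin-binding protein C, had 0.11. Mylk2, the kinase of the fast regulatory light chain, had 0.30, somewhat above the median of all genes.

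Within the slow set, Mb and Hspb6 had the smallest spread, though both lay above the median of all genes (0.237). Mb, the oxygen store myoglobin, had an SD of 0.51 and Hspb6, a small heat shock protein, 0.34. On the CMC control array at 5 d with Myh7 at 4.11, Mb was 12.50 and Hspb6 13.20. Both are also made outside slow fibres, Mb in fast oxidative fibres and Hspb6 in smooth muscle. Mb was lowest, at 9.78, 10.59 and 11.56, on 3 arrays of extraction batch D whose Gapdh 3' probe set exceeded its 5' probe set by 3.02, 1.26 and 1.58. The part of RNA quality in these Mb values was not tested. The 15 arrays with Myh7 below 6 had a Gapdh difference of 0.10 to 0.36.

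The slow genes were high or low on largely the same arrays. Deviations from group means were correlated over the 122 treated and 36 control arrays, which share the normalization. Among the 91 slow pairs the median r was 0.794 (0.350 to 0.991), and 45 pairs reached 0.8. The 10 slow genes at 0.8 or more with or including Myh7 had a median r of 0.927 over their 45 pairs. With Myh7, r was 0.982 for Tnnt1, 0.980 for Tnnc1, 0.972 for Myl2, 0.960 for Tnni1, 0.927 for Myoz2, 0.904 for Atp2a2, 0.898 for Myl3, 0.891 for Tpm3 and 0.854 for Ankrd2. It was lower for Csrp3 (0.694), Mb (0.661), Casq2 (0.621) and Hspb6 (0.411). Only 149 of the 14216 other genes, 1.05%, had an r of 0.5 or more with Myh7.

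The fast genes moved together less, with a median r of 0.352 over 120 pairs. The highest was 0.837 for Actn3 and Mybpc2, followed by 0.739 for Actn3 and Pvalb, 0.729 for Casq1 and Pvalb, and 0.725 for Myh4 and Myl1. Between slow and fast genes the median r was -0.299 over 224 pairs, with 21 at -0.5 or lower and 12 at 0.5 or higher. Mybpc2 had an r of -0.567 with Myh7, Mylk2 -0.464, Tpm1 -0.451 and Actn3 -0.449. Myh2 broke with its set: its r was 0.831 with Myoz2, 0.776 with Myl2 and 0.728 with Myh7. Myh1 had 0.420 with Myh7 and 0.513 with Myh2. The probe set used for Myh1 is of a design that can bind similar transcripts, and r between it and the other Myh1 probe sets ran from 0.0579 to 0.909.

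**Figure D4:**
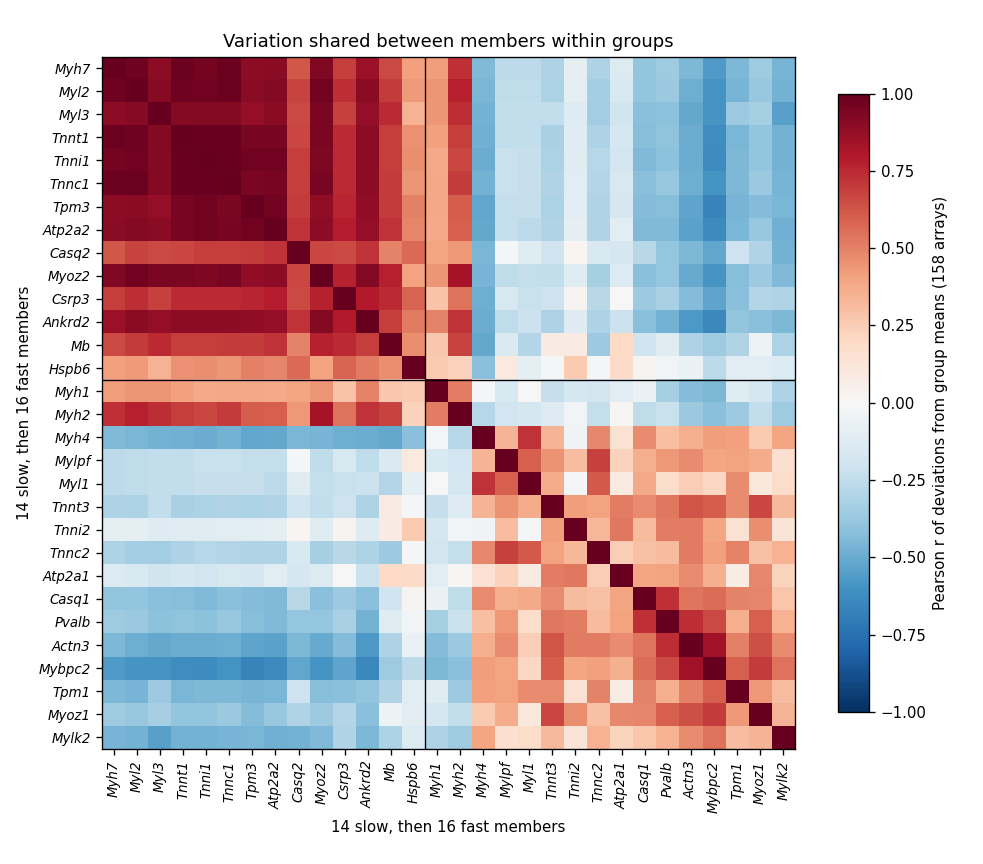
Pearson r of deviations from group means over all arrays for every pair of the 30 genes, from blue (-1) to red (1), slow genes first. The slow block is red with a median of 0.794, and Myh2 lies among the fast genes with red cells towards the slow ones.

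The correlation was tested in 5 pairs by 100000 permutations of arrays within groups, two-sided, with Benjamini-Hochberg adjustment over the 5. Myh7 and Tnni1 had r = 0.960 and rho = 0.955 (all arrays, permutation p = 1e-05 for each, the smallest these permutations could give, adjusted p = 1.67e-05 for r). Without the 2 arrays farthest from the median of Myh7, r was 0.956, and within extraction batches it ran from 0.931 to 0.984. Myh7 and Myh2 had r = 0.728 and rho = 0.733 (permutation p = 1e-05, adjusted p = 1.67e-05), 0.684 without 2 arrays and 0.625 to 0.858 within batches. Myh7 and Myh4 had r = -0.438 and rho = -0.516 (permutation p = 1e-05, adjusted p = 1.67e-05), -0.425 without 2 arrays and -0.592 to -0.345 within batches. High slow myosin thus went with high Myh2 and with low Myh4. The Myh4 probe set read near the top of the scale, so the size of its change cannot be set against that of Myh2.

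Myh2 and Myh4 had r = -0.284 and rho = -0.386 (permutation p = 8e-05 for r, adjusted p = 0.0001, and adjusted p = 2.5e-05 for rho). It was -0.331 without 2 arrays and negative in 5 of 6 batches, but 0.313 in batch G. Tnni1 and Tnni2, the slow and fast inhibitory troponins, had r = -0.120 (permutation p = 0.175) and rho = -0.199 (permutation p = 0.0285). Within batches r was negative in 5 of 6, from -0.559 in batch A to -0.023 in batch D, but 0.250 in batch E. In controls alone it was -0.478. The direction for this pair was thus mostly negative, but r over all arrays was weak and its permutation p was 0.175. The array rich in heart genes left these values nearly the same.

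The genes most like Myh7 outside the set, by r of deviations, were Ldhb (0.900), the lactate dehydrogenase subunit of oxidative muscle, Atp1b1 (0.797), a sodium pump subunit, Smtnl1 (0.767), Lmcd1 (0.767), Myh10 (0.759), Pla2g12a (0.750), Lmod2 (0.747), an actin filament nucleator, Pdlim1 (0.745), Fabp3 (0.743), the heart and slow muscle fatty acid carrier, and Slc16a1 (0.738), a lactate transporter. Those most like Myh4 were Neb (0.739), the thin filament ruler nebulin, Usp25 (0.733), Pcyox1 (0.710), Acyp2 (0.704), Sypl1 (0.700), Rc3h2 (0.692), Hdac2 (0.683), Trpm7 (0.682), Lap3 (0.682) and Zc3h11a (0.677). With Myh4, 65 genes (0.457%) had an r of 0.5 or more.

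Other muscle genes followed Myh7 in part. Of 18 measured sarcomere genes of both fibre kinds, 3 had an r of 0.5 or more, Lmod2, Actn2 (0.666) and Cryab (0.539), and Myom2, an M band protein, had -0.566. Of 14 calcium handling genes, 1 did, Sln (0.509), a pump inhibitor. Of 24 regulators of fibre kind, 4 did: Esrrg (0.719), a nuclear receptor of oxidative metabolism, Rcan1 (0.548), a calcineurin inhibitor, Prox1 (0.544) and Tead1 (0.508). Below -0.5 lay the calcineurin subunits Ppp3ca (-0.649) and Ppp3cb (-0.520) and Sox6 (-0.511), a repressor of slow genes. The medians of the 3 lists were 0.047, -0.266 and -0.005, against -0.002 over all genes, and 60 genes in all (0.422%) had -0.5 or lower.

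Markers of other cells moved with Myh7 in part. Over the mean levels of 8 marker lists and the Gapdh difference, tested as the pairs were, Myh7 had r = 0.453 with 7 endothelial genes (rho = 0.455, permutation p = 1e-05, adjusted p = 4.5e-05 over 9) and 0.442 with 6 smooth muscle genes (rho = 0.441, adjusted p = 4.5e-05). The first was -0.096 within batch D. Schwann cell genes had 0.306 (rho = 0.373, adjusted p = 0.00021) and developmental and cardiac sarcomere genes 0.239 (rho = 0.332, adjusted p = 0.00151), or 0.347 without the array rich in heart genes. The r with fat cell genes was 0.039, with tendon 0.177, with red blood cell 0.169, with immune cells 0.007 and with the Gapdh difference -0.069, none past the limit of 0.05 after adjustment, while rho for tendon (0.219, adjusted p = 0.0313) and red blood cells (0.209, adjusted p = 0.0322) passed it. No gene of these 8 cell lists had an r of 0.5 or more with Myh7. Their part in the spread of the slow genes was not tested.

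Which of the genes each compound changed was asked against the controls of its own vehicle, with a call at an adjusted p of 0.01 or less (limma, over all genes) and a fold of 1.5 or more. Of 630 pairs of gene and compound, 2 were called, or 0.317%, against 1.64% of all pairs over the 14217 genes. Both were in Dicyclomine, where 5.64% of all genes were called, 2.88% higher and 2.76% lower. The other 20 compounds called 0 of the 30 genes. Of all genes, Levosulpiride called 5.47%, Atenolol 5.25%, Guanethidine 4.69%, Glyburide 4.10%, Chlorpropamide 3.17% and Etidronate 2.48%, and each of the next 8 under 1%: Losartan 0.809%, Paroxetine 0.682%, Trimethadione 0.457%, Buspirone 0.436%, Gabapentin 0.429%, Phenytoin 0.317%, Sulpiride 0.183% and Flunarizine 0.120%. Oxybutynin called 0.0844%, Azaribine 0.0422%, Pentoxifylline 0.0141%, Famotidine 0.00703%, and Dexchlorpheniramine and Spironolactone 0%. At an unadjusted p under 0.05 there were 45 of 630 pairs, 17 of 294 slow and 28 of 336 fast, beside 18.6% of all pairs over the 14217 genes.

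**Figure D5:**
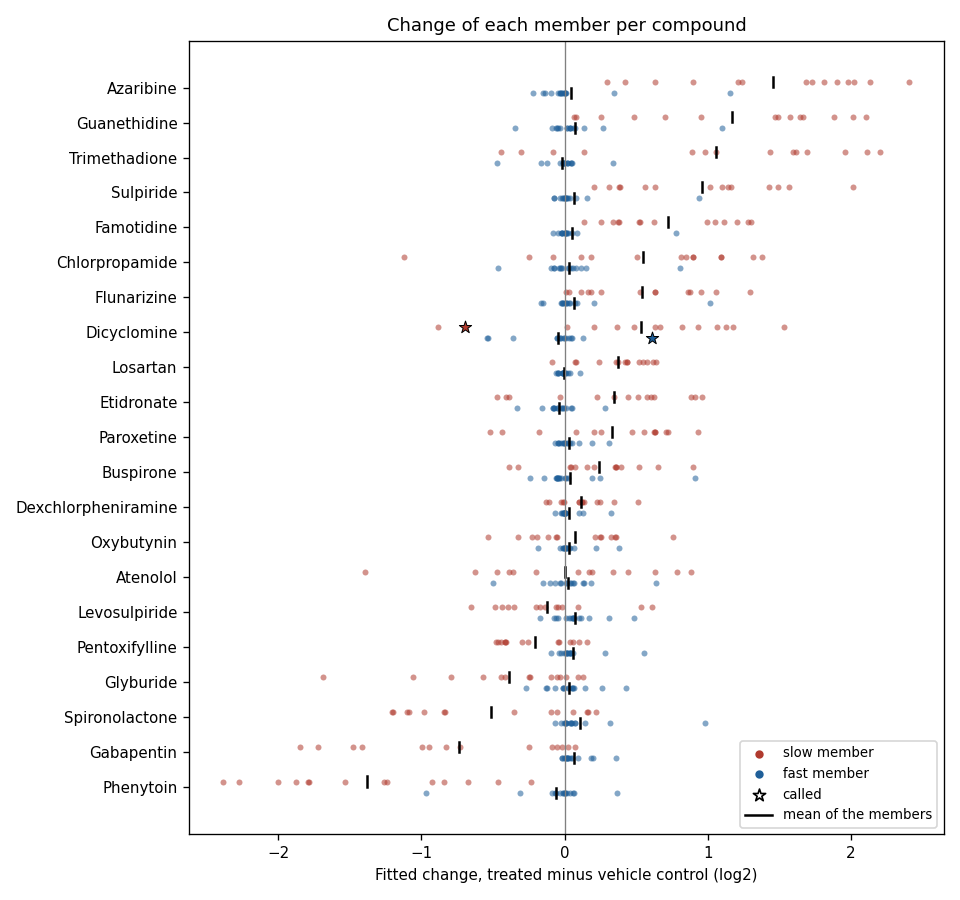
Fitted change of each of the 30 genes (horizontal, treated minus vehicle control, log2) for the 21 compounds (vertical), slow genes red, fast genes blue, bars the mean of each set, stars the called genes. The slow genes scatter up to 2.41 and fast genes mostly lie near 0, and the only stars are Hspb6 and Mylk2 in Dicyclomine.

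Dicyclomine, an antimuscarinic drug, lowered Hspb6 and raised Mylk2. Hspb6 read 12.54 and 12.86 at 3 d and 12.35 and 12.51 at 5 d, against 12.65 to 13.86 (median 13.28) in 18 Water controls. Of the treated arrays 3 lay below every control and the other within their range. The change was -0.70 ± 0.13 (log2, SE, n = 4 against 18, limma adjusted p = 0.000639). Mylk2 read 11.63 and 11.52 at 3 d and 11.58 and 11.37 at 5 d, against 10.53 to 11.39 (median 10.90), and rose by 0.61 ± 0.12 (limma adjusted p = 0.00145). All 4 arrays lay above the control mean for Mylk2 and below it for Hspb6. Neither call was made with extraction batch as a block, where 4.12% of all genes were called (adjusted p = 0.0148 and 0.0211), with the same size of change (-0.71 and 0.63).

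In the same rats, Pvalb and Casq1 passed the p limit, as 10.0% of all genes did, at a fold below 1.5 and so were not called. Pvalb read 13.77 and 14.09 at 3 d and 13.35 and 13.03 at 5 d, against 13.64 to 14.27 in controls (change -0.53 ± 0.13, limma adjusted p = 0.00532). Casq1 read 13.61 and 13.80 at 3 d and 13.41 and 12.87 at 5 d, against 13.67 to 13.87 (change -0.36 ± 0.09, limma adjusted p = 0.00640). Both were lower at 5 d than at 3 d. The change at 5 d minus that at 3 d was -0.82 ± 0.19 for Pvalb (adjusted p = 0.0170) and -0.55 ± 0.14 for Casq1 (adjusted p = 0.0235), 2 of the 14 pairs under 0.05 unadjusted among 630 (5.77% of all pairs over all genes) and the only ones past the limit of 0.05 after adjustment. In this comparison 3.98% of all genes passed. Neither passed without Dicyclomine 5 d replicate 2 (adjusted p = 0.168 and 0.339) or without 3 d replicate 2 (0.154 and 0.182).

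Other genes of the muscle that Dicyclomine changed included Sln, an inhibitor of the calcium pumps, which rose by 2.74 ± 0.49 (limma adjusted p = 0.000479). Jph2 and Srl, proteins of the membrane junction and the reticulum, fell by 1.31 and 0.735, so 1 of 14 calcium handling genes rose and 2 fell. Of 24 regulators 1 fell, Ppargc1a (-0.90), a coactivator of oxidative genes, and 0 of 18 sarcomere genes of both fibre kinds were called. Hbb and Alas2, red cell genes, fell by 1.75 and 1.43, 2 of 6, and Kdr of endothelium by 1.06, 1 of 7. The mean level of the tendon genes was 6.03 to 6.22 in the 4 arrays against 6.15 to 9.46 in Water controls, and that of smooth muscle genes 7.81 to 7.97 against 7.79 to 9.30, with 0 of 8 and 0 of 6 called. That of 4 Schwann cell and nerve genes was 7.52 to 11.98 (median 9.69) against 7.17 to 12.00 (median 7.90), with a median change of 1.42 and 0 called. The part of these cells in the Hspb6 change was not tested.

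Pvalb was also lower in 3 compounds given in CMC whose batches held no CMC control. It read 13.41, 13.92 and 13.92 at 3 d and 13.83, 13.25 and 13.08 at 5 d in Atenolol, against 13.86 to 14.24 in 12 controls (change -0.50 ± 0.11, limma adjusted p = 0.00462). It changed by -0.46 ± 0.10 in Chlorpropamide (limma adjusted p = 0.00734) and -0.35 ± 0.08 in Guanethidine (limma adjusted p = 0.00619), both under the p limit and under the fold limit. The p limit alone passed 8.93%, 5.28% and 9.09% of all genes in these 3 compounds. Treated arrays overlapped with controls in all 3. Batch D, which held most of these arrays and no control, had a median Pvalb of 13.85 over its 30 arrays, against 14.14 in batch A, 13.99 in B and 14.07 in C. Compound and batch cannot be told apart here.

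The mean change of the slow genes was largest in Azaribine, at 1.45 on the log2 scale, with the fast mean at 0.05. All 14 slow genes had values above 0. Myh7 in Azaribine read 12.14, 13.72 and 13.61 at 3 d and 12.97, 13.23 and 12.42 at 5 d, within the 4.11 to 13.72 of its controls, and its change of 2.41 ± 1.51 did not pass (limma adjusted p = 0.693). Guanethidine (1.17), Trimethadione (1.06) and Sulpiride (0.96) had the next highest slow means. All 14 slow genes were above 0 also in Famotidine (with the array rich in heart genes), Flunarizine, Guanethidine and Sulpiride, and 11 in Trimethadione. The slow genes were largely high or low together, so counts of them above 0 are not counts of independent results. The median of Myh7 in Flunarizine was 11.93 at 3 d and 12.26 at 5 d, against 11.58 and 12.75 in CMC controls. In Sulpiride it was 13.04 and 11.53. The median change of the slow genes was 1.71 in Azaribine and 1.48 in Guanethidine, against 0.00664 and 0.0115 over all genes.

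Phenytoin had the lowest slow mean, -1.38, with 0 of 14 slow genes above 0 and a fast mean of -0.06. Myh7 read 11.57, 6.54 and 8.98 at 3 d and 11.94, 5.65 and 5.14 at 5 d. Tnni1 read 10.80, 7.12 and 8.12 and then 10.78, 6.48 and 5.98, and Myh2 13.57, 13.32 and 11.24 and then 13.77, 11.41 and 10.24. At each time replicate 1 was the highest for Myh7 and Myh2 and the others were lower, and 5 of the 14 slow genes had an unadjusted p under 0.05, beside 16.5% of all genes. The change of Myh7 was -2.28 ± 1.28 (limma adjusted p = 0.400), and the Water controls ran as low. Gabapentin followed at a slow mean of -0.73 and Spironolactone at -0.51. In Gabapentin Myh7 ran from 10.28 to 11.74 at 3 d and from 5.60 to 7.22 at 5 d. Water controls ran from 7.01 to 13.75 and from 4.29 to 13.65. The interaction of treatment and time passed for no slow or fast gene in Gabapentin.

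The slow minus fast difference, given without a test, was 1.41 in Azaribine, where its SD was 0.62 over treated arrays and 1.82 over controls. It was 0.32 with extraction batch as a block. Within batch A, the only batch that held both, it was 3.66, from 1 Azaribine array against 6 CMC controls. The other 5 Azaribine arrays were in batch B, which held no CMC control. The difference was 1.10 in Guanethidine (0.89 with the block) and 1.08 in Trimethadione (0.08 with the block and 0.13 within shared batches). In Sulpiride it was 0.89 (1.52 and 2.00). It was -1.32 in Phenytoin (-1.60 and -1.33) and 0.58 in Dicyclomine (-0.49 and -0.37). In Famotidine it was 0.67, 0.37 to 1.06 with 1 treated array left out at a time. With batch as a block Famotidine gave 0.07, and arrays of shared batches alone gave -0.40, so its sign turned, as it did in Dicyclomine.

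Intervals were wide for the most variable slow genes and narrow for most fast genes. Without the fold limit 7 of the 630 pairs passed the adjusted p limit, against the 2 called. The 95% interval of the Myh7 change reached 2.35 to 3.80 on the log2 scale to either side, and 0 of 21 intervals excluded 0. For Myh4 it reached 0.092 to 0.246. Slow genes had a fitted change of 1 or more in 70 pairs, and 0 of these were called. Fast genes had a change of 1.5-fold or more in 11 pairs, 10 of them Myh2 and the other Mylk2 in Dicyclomine. Of 122 treated arrays, 3 lay outside the control range of Myh7. The interval was narrower for the quieter slow genes, at 0.32 to 0.96 for Mb and 0.22 to 0.52 for Hspb6. A fitted Myh7 change smaller than the reach of its interval could not be called with these numbers of arrays, and the adjusted p limit asked for more.

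Treated and control arrays were fully apart in 4 of the 630 pairs, all fast genes and all small, beside 1.12% of all pairs over the 14217 genes. Tpm1 was higher in Atenolol (0.13) and Levosulpiride (0.17), Mylpf lower in Etidronate (-0.07) and Tnni2 lower in Glyburide (-0.12), on the log2 scale, and 0 were called. Of all genes 3.25% were apart in Atenolol, 4.85% in Levosulpiride, 0.921% in Etidronate and 3.81% in Glyburide. With extraction batch as a block the Tpm1 values were -0.05 and -0.01 and the Tnni2 value 0.01. Batch D medians were 14.47 for Tpm1, against 14.37, 14.35 and 14.34 in batches A, B and C, and 14.21 for Tnni2, against 14.34 in each of the 3.

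Related compounds were given at different doses and are set side by side only. The genes shown were picked because they are described above for 1 compound of the pair. Levosulpiride, Chlorpropamide and Glyburide had no CMC control in their batches. Sulpiride at 1000 mg/kg had a Myh7 change of 2.01 ± 1.52, and Levosulpiride, 1 of its enantiomers, at 1200 mg/kg had -0.06 ± 1.67. The sulfonylureas Chlorpropamide at 269 mg/kg and Glyburide at 1500 mg/kg had Pvalb changes of -0.46 and -0.27. The antimuscarinic drugs Dicyclomine at 645 mg/kg and Oxybutynin at 230 mg/kg had Hspb6 changes of -0.70 and -0.32 and Mylk2 changes of 0.61 and 0.22. In Oxybutynin the smallest limma adjusted p was 0.434 among the slow genes and 0.527 among the fast genes.

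Over all compounds at once, 6 of the 30 genes differed (limma F over 21 contrasts, adjusted p of 0.01 or less), beside 35.7% of all genes. They were slow Hspb6 (adjusted p = 0.000443) and Mb (0.00296), and fast Pvalb (1.02e-05), Tnni2 (1.79e-05), Tpm1 (0.000374) and Casq1 (0.00995). They were not the genes of large spread: Myh7, the other myosins and the light chains were not among them. With extraction batch as a block 0 of the 30 passed, beside 6.89% of all genes. Without the array rich in heart genes 5 passed, Casq1 being lost, and without the arrays of a Gapdh difference over 1 Mb was lost (adjusted p = 0.0324). With the mean of all probe sets of a gene 8 passed, Atp2a1 and Mybpc2 being gained. The share of variance between groups was 27.4 to 45.9% in slow genes and 19.4 to 62.3% in fast genes, around a median of 38.5% over all genes.

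Extraction batches differed in Myl3 (limma F, adjusted p = 0.00807) and Tpm1 (adjusted p = 0.00629), 2 of the 30, beside 13.1% of all genes. The median of Myl3 was 11.14 in batch A, 12.76 in B and 11.66 in C. Spread itself varied by batch: Myh7 ran from 10.90 to 13.87 in batch B (SD 0.82, n = 26) and from 4.11 to 14.02 in batch A (SD 3.46, n = 21), a difference that was not tested. Time and vehicle made no call among control arrays. Between 5 d and 3 d, 0 of 30 genes passed (limma, 2 with an unadjusted p under 0.05 beside 3.20% of all genes, changes from -0.72 to 0.37), and between CMC and Water 0 passed (0 under 0.05 beside 7.21%, -0.69 to 0.36), beside 0% of all genes in both.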

How the data were processed

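The deposited values are on a log2 scale, 1 per probe set and array, normalized by the authors with RMA according to the submitters' processing notes. The study's methods name frozen RMA (frma and frmaTools) instead, and which of them made these values was not settled. RMA compresses changes of dim transcripts. Array medians lay between 5.69 and 5.89, and the number of arrays limits the precision. The platform annotation gave 1 symbol for 20826 of 31099 probe sets, several for 436 and none for 9780, and 57 more were controls of the array. Each of the 14217 genes was read from its probe set with the highest mean, and 4525 had others. Among the 30 genes, r between the used and other probe sets was 0.865 for Myh7 and 0.996 for Tnni1, but ran down to 0.0285 for Tpm3 and -0.188 for Tpm1. Mylpf was found as Myl11 through the synonyms of the rat gene table.

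Each compound was fitted with its vehicle's controls and time as a covariate (limma 3.58.1, R 4.3.3) where the study's methods name plain t-tests corrected for time, run here as an alternative, with Benjamini-Hochberg adjustment over all genes. F tests used all arrays. The interaction of treatment and time passed at an adjusted p of 0.05. Extraction batches A to G are the 7 extraction dates of the labels, and study is the code in the titles. Replicates are numbered in order of deposit and were described as biological, and p-values cover the spread between animals with 1 array each. One CMC control, 3 d replicate 3, carried 5 d in its title and 3 d elsewhere and was kept at 3 d. Tested on simulated data for Losartan over 14217 genes, the fit called 90% of genes changed by 1 and 100% of genes changed by 2 on the log2 scale. The changed genes were drawn at random from all genes, each with its spread in the controls. The median within-group SD was 0.237 over all genes and 1.52 over the slow genes, so these shares do not describe the slow genes.

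All 30 genes could be named, as could called genes, at most 3 a list and compound outside the set, and the 10 genes with the highest r with Myh7 and with Myh4. The genes, lists and tests were chosen with earlier results of these data known. Alternatives covered batch, study, hybridization period, controls, thresholds, dim genes, probe sets, normalization, RNA quality and single arrays left out.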

Additional observations from a re-analysis of the deposited data

Results flagged for a closer look

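Within the 5 control groups, 30 of 150 pairs of gene and group, or 20%, held an array far from the rest of its group by Dixon's test, beside 12.1% of such pairs over all genes and about 1 in 20 by chance. Of the 30, 20 lay on 2 arrays with little slow myosin, where the slow genes were low together.

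CMC control 5 d replicate 5 was lowest by a wide gap for Myh7 (4.11, others 12.62 to 13.72), Myl2 (5.32), Myl3 (7.16), Tnnt1 (4.39), Tnni1 (6.82), Tnnc1 (4.97), Myoz2 (4.68) and Myh2 (9.25, others 13.10 to 13.95). In the same group replicate 2 was low for Hspb6, at 11.94 against 13.07 to 13.42.

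CMC/SDS/Povidone control 5 d replicate 1 was lowest for Myh7 (5.35, others 12.40 to 13.81), Myl2 (6.17), Myl3 (7.60), Tnnt1 (4.79), Tnni1 (6.90), Tnnc1 (5.78), Atp2a2 (9.77), Myoz2 (6.19), Ankrd2 (6.46) and Myh2 (11.09). It was highest for the fast genes Mylpf (14.56, others 14.46 to 14.48) and Tpm1 (14.57, others 14.32 to 14.41).

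Myh2 was the one gene of the set past the limit on 3 further arrays, though slow genes were low there too: at 6.34 in CMC control 3 d replicate 4 (others 12.14 to 13.80), at 11.50 in Water control 3 d replicate 2 (12.96 to 14.00) and at 11.24 in Water control 5 d replicate 8 (12.89 to 13.92). Fast genes stood out by less. In Water controls at 3 d, Tnni2 was highest at 14.42 in replicate 5, Pvalb lowest at 13.64 in replicate 6 and Tpm1 lowest at 14.24 in replicate 3. Water control 5 d replicate 7 was lowest for Tnnt3 (14.16), Pvalb (13.75) and Actn3 (13.99).

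The change in Dicyclomine differed between 5 d and 3 d by -0.55 for Casq1 and -0.82 for Pvalb (log2). Outside the set, Tnni3 at 13.35 in Famotidine 3 d replicate 2 lay above every control.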

How the results depend on the processing

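Over the alternatives, 988 values of comparisons counted as the same, 18 moved and 1 became stronger. A slow minus fast change counted as the same within its pooled within-group SD of the main value, whatever its sign. The turns of sign in Dicyclomine and Famotidine are therefore among the 988. For single genes 495 kept their side of the threshold and direction, 9 became weaker, 7 stronger and 3 reversed. The 3 that reversed, with extraction batch as a block, were Tpm1 in Atenolol (-0.0537) and Levosulpiride (-0.0149) and Tnni2 in Glyburide (0.0119). In Dicyclomine the number called, 2 of the 30, was 4 with no fold limit, 1 with the mean of all probe sets and with quantile normalization repeated, and 0 with controls of the same study, within shared extraction batches or with the batch block. The fits with controls of the same study and within shared batches use fewer arrays. Leaving out 1 array at a time gave 2 to 4, with 4 without Dicyclomine 3 d replicate 2, and without 3 d replicate 1 Mylk2 was lost (adjusted p = 0.0128) and Pvalb gained. With no fold limit, Atenolol, Chlorpropamide and Guanethidine each had 1 (Pvalb). Glyburide had 1 (Mb, -1.09) with all 36 controls and in 1 fit of all arrays. The 6 genes with any compound effect were 0 with the batch block. The 2 that differed between batches were 0 in controls only. The interaction of time was found in 1 gene in Atenolol with the block (Mylk2, 1.12, adjusted p = 0.0457), and in 0 to 3 genes in Dicyclomine leaving 1 array out. The slow minus fast change in Azaribine was 3.66 within its shared batch, from 1 treated array. The r of Tnni1 and Tnni2 was -0.150 from group and batch means (permutation p = 0.0247). Causes were not tested. Without the array rich in heart genes the any-compound count was 5. No paired analysis was possible because the labels carry no replicate numbers that link a treated rat to a control.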

Other observations

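Outside the set, the regulators of fibre kind were called in 18 of 504 pairs of gene and compound (3.57%), 10 higher and 8 lower, beside 1.64% of all pairs. Nrip1, a corepressor of oxidative genes, rose by 1.37 ± 0.12 in Guanethidine (log2, SE, limma adjusted p = 1.46e-06), by 1.23 ± 0.17 in Losartan (limma adjusted p = 7.05e-05) and by 1.18 ± 0.17 in Etidronate (limma adjusted p = 6.49e-05). Mef2d, a transcription factor of muscle, fell by 0.61 in Atenolol, 0.69 in Chlorpropamide, 0.995 in Glyburide and 0.70 in Levosulpiride. These and Guanethidine and Buspirone were given in CMC with no CMC control in their batches, so compound and batch cannot be told apart in them. In all 6 of these the slow and fast genes were not called.

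Calcium handling genes were called in 8 of 294 pairs (2.72%), 1 higher and 7 lower, with Jph2 lower in Dicyclomine and in 4 compounds of that kind. Sarcomere genes of both fibre kinds were called in 9 of 378 pairs (2.38%), 1 higher and 8 lower, and smooth muscle genes in 13 of 126 (10.3%), all lower and all in those 6 compounds (5 in Levosulpiride), where batch cannot be told apart. Developmental and cardiac sarcomere genes were called in 0 of 210 pairs.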
